A study of Homo sapiens with 6 samples.

Results

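The 4 HOX gene clusters were examined in the human small cell lung cancer lines H82 and H524, both cultured without treatment and both used as models of small cell lung cancer with high NEUROD1. Chromatin immunoprecipitation sequencing was done for NeuroD1, a basic helix-loop-helix protein that drives neuronal gene programmes, and for H3K4me3, a histone mark of active promoters. The members were chosen by position alone. They are all listed regions whose midpoint falls in the HOXA span on chromosome 7 (27130000 to 27250000, build hg19), the HOXB span on chromosome 17 (46600000 to 46810000), the HOXC span on chromosome 12 (54330000 to 54450000) or the HOXD span on chromosome 2 (176950000 to 177060000). Entries with the same interval were merged. These spans, 560 kb in all, held 175 of the 61250 regions in the 4 lists, namely 75 H3K4me3 and 3 NeuroD1 regions of H82, and 88 H3K4me3 and 9 NeuroD1 regions of H524. A further 42 regions lay in the 50 kb to either side and are given apart. Each list came from 1 library, so the differences below have no replicate check and no p-value.

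HOX genes encode homeodomain transcription factors that give cells their position along the head-to-tail axis of the embryo. The genes of a cluster lie in the order in which they are used along that axis. Polycomb proteins keep the clusters silent and Trithorax-group methyltransferases, which write H3K4me3, keep chosen parts of them active, so the mark is often read as a record of which HOX genes a cell lineage has open. The human genome has 39 HOX genes, with 11 in HOXA, 10 in HOXB, 9 in HOXC and 9 in HOXD. In the RefSeq table of GRCh38.p14 the anterior genes come first along the chromosome in HOXA and HOXB. The posterior genes come first in HOXC and HOXD. Gene positions in hg19 were not used here, so regions are given by coordinates and not assigned to single genes.

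The clusters also carry microRNA genes of shared families, and their mature sequences are shown because the HOXB cluster, where the lines differed most, carries a member of each of 2 such families. In RefSeq (GRCh38.p14), MIR10A stands between HOXB4 and HOXB5 on the minus strand of chromosome 17, and MIR196A1 between HOXB9 and HOXB13 on the same strand. MIR196A2, between HOXC10 and HOXC9 on chromosome 12, gives the same mature miR-196a-5p as MIR196A1, and MIR196B lies between HOXA9 and HOXA10 on chromosome 7. Capitals mark the seed, bases 2 to 8, the stretch that pairs with target RNAs.
hsa-miR-10a-5p: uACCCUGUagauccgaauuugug
hsa-miR-196a-5p: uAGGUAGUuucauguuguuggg
hsa-miR-196b-5p: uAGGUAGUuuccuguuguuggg
The miR-196 sequences of the HOXA, HOXB and HOXC clusters share the seed AGGUAGU, whereas the HOXB-encoded miR-10a has the seed ACCCUGU. RNA was not measured, so nothing is known here of their levels.

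H3K4me3 was listed across the HOXB cluster in H524 and at few places there in H82, while the other 3 clusters had more regions in H82. HOXA held 24 H3K4me3 regions in H82 and 12 in H524. HOXB held 5 and 42, HOXC 23 and 19, and HOXD 23 and 15. The H524 to H82 ratio of counts was thus 8.4 in HOXB, 0.50 in HOXA, 0.826 in HOXC and 0.652 in HOXD, against 1.02 for the whole lists (18208 and 18595 regions). Without HOXB, the clusters held 70 regions of H82 and 46 of H524. The direction in HOXD depended on weak regions, since at or above the median score HOXD held 7 regions of H82 and 9 of H524. The size of the HOXA difference depended on them too. HOXA held 13 regions of H82 and 8 of H524 at or above the median score. With a score of at least 5 it held 6 and 5.

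**Figure D1:**
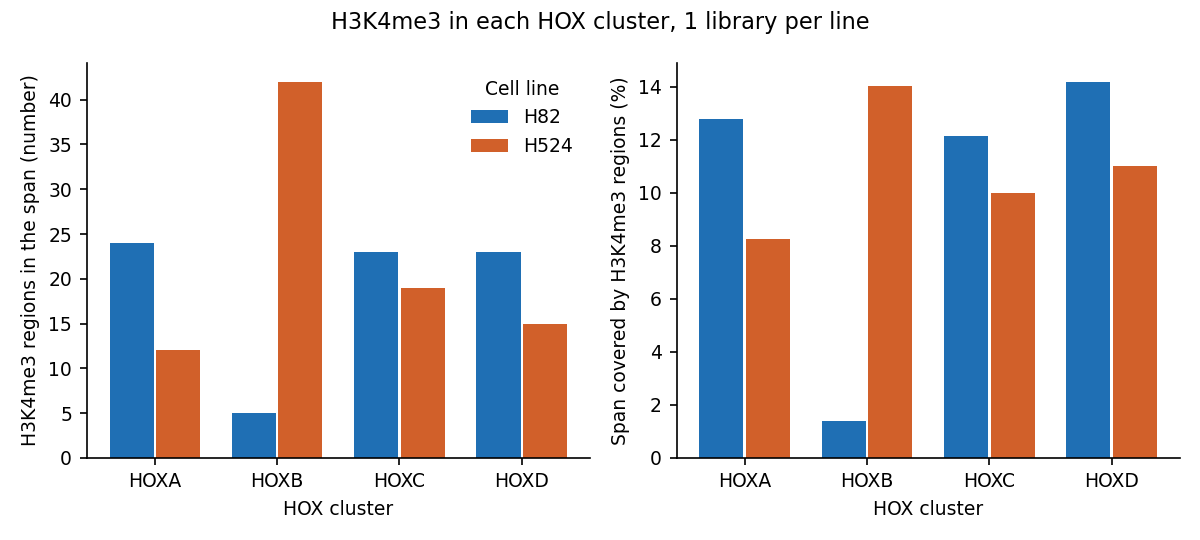
Number of H3K4me3 regions (left) and percent of the span they cover (right) in each HOX cluster, for H82 (blue) and H524 (orange), with 1 library per line and so no error bars. HOXB has 5 regions in H82 and 42 in H524, and the other 3 clusters have more in H82.

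The covered length went the same way. In HOXB the mark covered 2.90 kb in H82 and 29.5 kb in H524, or 1.38% and 14.0% of the span, a ratio of 10.2. It covered 15.3 and 9.91 kb of HOXA (12.8% and 8.26%), 14.6 and 12.0 kb of HOXC (12.1% and 10.00%) and 15.6 and 12.1 kb of HOXD (14.2% and 11.0%). The HOXB coverage of H524 thus lay within the range of HOXA, HOXC and HOXD in H82. The HOXB cluster of H82 had the lowest coverage of the 8 values. All of these values were above the mean between the first and last listed region of each chromosome, 0.509% in H82 and 0.440% in H524. They exceeded it by 2.71-fold in the HOXB cluster of H82 and by 18.8-fold to 31.9-fold in the other 7. These means include stretches without genes, whereas the clusters are dense in genes.

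Windows of the same length over all chromosomes gave a background for the ratios. Only windows with at least 10 H3K4me3 regions over both lines were used, and those that touch the cluster were left out. In windows of the length of HOXA or HOXC, 17.7% had at least 2-fold more regions in H524, and in those of the length of HOXD 16.9% did. Among 911 such windows of 210 kb, the length of HOXB, 15.7% had at least 2-fold more regions in H524. None of them had as many H524 regions as HOXB (the highest had 40) or as large an excess of H524 over H82 regions (37 in HOXB, at most 31 elsewhere). By the ratio alone HOXB was not the only one, since 26 of the 911 (2.85%) had an H524 to H82 ratio at least as high, 10 of them with 0 regions in H82 and none with more than 24 in H524. For H82, 756 of the 911 windows had at least the 5 regions of HOXB. The filter of 10 regions over both lines removes many windows with low counts, whereas HOXB passed it through its 42 H524 regions. This share therefore cannot show how unusual the H82 count of HOXB was. The 2-fold excess of H82 in HOXA was shared by 15.1% of 583 windows of 120 kb, so by its ratio HOXA was near the background. By number it was not, since only 6 of the 583 windows had as large an excess of H82 over H524 regions. For HOXC and HOXD, 104 of 583 and 27 of 516 windows had an H82 excess as large in number. HOXC and HOXD stayed below 2-fold, which 15.1% and 16.7% of their windows reached in favour of H82. At least as many H82 regions as in HOXA, HOXC and HOXD were found in 3, 3 and 1 of the other windows of their length, and at least as many H524 regions in 47, 8 and 20.

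**Figure D2:**
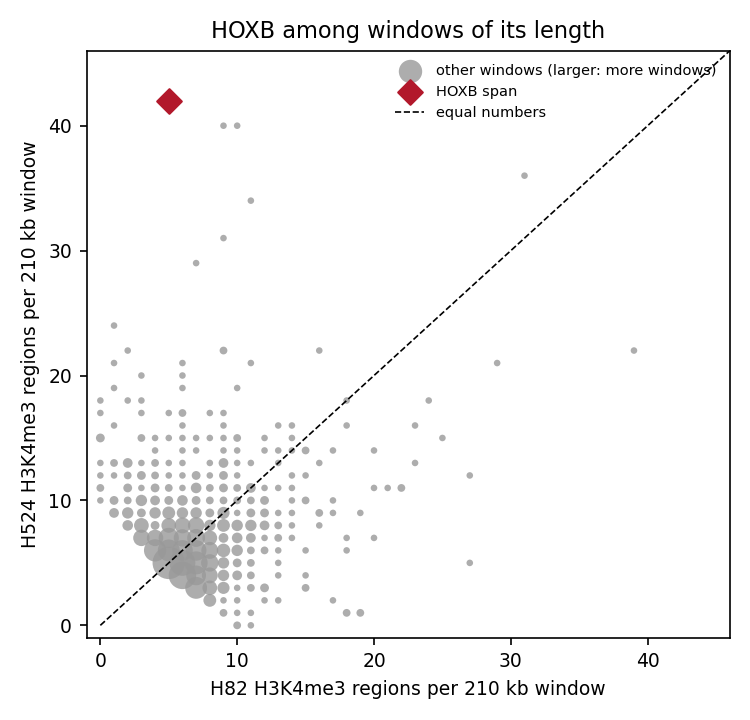
H3K4me3 regions of H82 (x axis) and H524 (y axis) per 210 kb window, for 911 windows with at least 10 regions (grey, larger where more windows coincide) and for the HOXB span (red diamond). HOXB, at 5 and 42, lies above all grey points, of which the highest has 40 regions in H524.

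Along HOXB, most H524 regions lay in the first 105 kb of the span, which held 30 of the 42. In 4 equal parts the span held 11, 19, 5 and 7 of them, so the second part had the most. The longest stretch without a region in H524 was 25.0 kb long (46725368 to 46750399). In H82 it was 116.7 kb (46688871 to 46805539). The highest-scoring H524 region of HOXB, from 46687602 to 46690328, was 2.73 kb wide with 4 summits and a score of 14.3. The score of each region was read as a −log10 value from its values alone, and it ranks regions only within a list. Percentiles here are of that rank, counted from the lowest score, with tied scores given their mean rank. This region stood at percentile 98.9. It was followed by 46702374 to 46704211 (1.84 kb, score 11.2, percentile 96.3) and 46662705 to 46663636 (0.932 kb, score 8.77, percentile 91.6), both listed in H524 alone. Among the widest was also 46619697 to 46621502, with 1.81 kb and percentile 73.1.

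H82 had 5 regions in HOXB, and 4 of them lay in the first 105 kb. The highest-scoring, from 46688273 to 46688870 (score 6.73, percentile 81.4), lies inside the highest-scoring H524 region. The region from 46686359 to 46687015 (percentile 28.9) also overlapped an H524 region, and so did the only one at the far end of the span, from 46805540 to 46806037, which met the 1.19 kb H524 region from 46804864 to 46806049 (percentile 78.4). Those from 46684679 to 46685051 (percentile 60.8) and from 46652542 to 46653312 (0.771 kb, percentile 34.5) were in H82 alone. In all, 3 of 42 H524 regions in HOXB were found in H82 (7.14%, exact Clopper-Pearson 95% interval 1.5 to 19.5), against 52.9% of the whole H524 list. With 5 H82 regions there, this share largely restates the difference in counts. Of the 5 H82 regions, 3 were found in H524 (60.0%, 14.7 to 94.7), against 52.4% of the whole H82 list. Intervals here cover counting error only, and neighbouring regions are not independent.

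**Figure D3:**
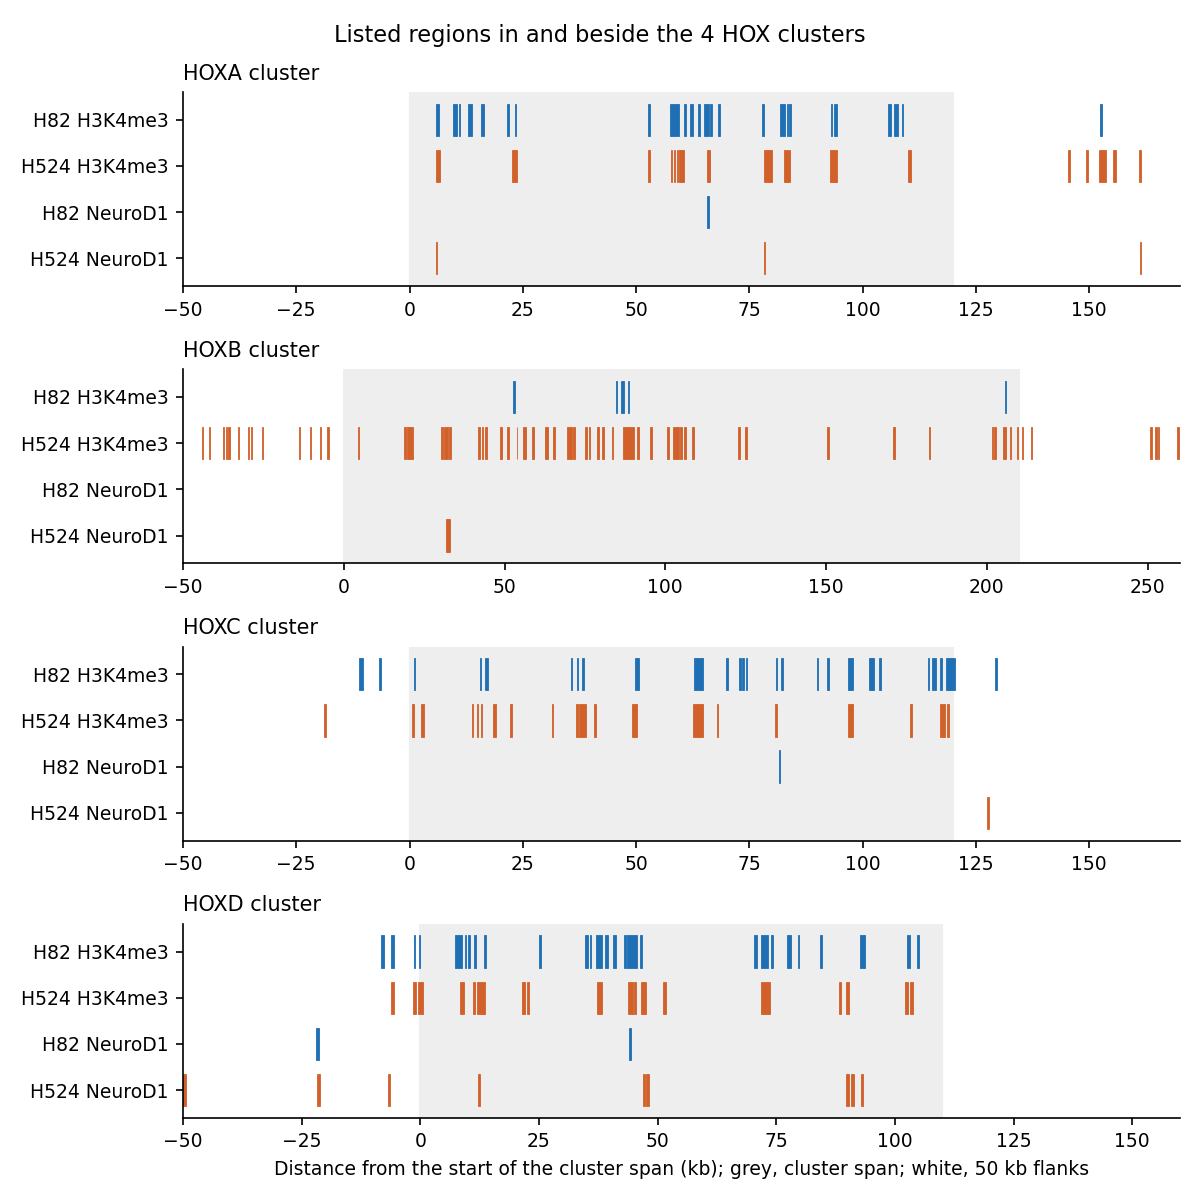
Positions of all listed regions in the 4 HOX clusters (grey span) and their 50 kb flanks, by distance from the start of the span in kb, drawn to scale for each list, with H82 in blue and H524 in orange. The H3K4me3 row of H524 runs through HOXB with 42 regions and into its flanks, whereas the H82 row shows 5, and the NeuroD1 rows hold 3 regions in H82 and 9 in H524.

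The H524 surplus ran beyond the HOXB span. The 50 kb flanks held 19 H3K4me3 regions in H524, with 13 before and 6 after the span, and 0 in H82. In the 200 kb before the span H524 had 21 regions and H82 had 0. The flank regions of H524 were narrow and low in rank, with a median width of 453 bp and a median percentile of 12.7, against 553 bp and 47.0 inside the span. The highest-scoring of them was at 46563944 to 46564528 (percentile 79.9). From 50 to 500 kb on either side there were 25 regions in H82 and 48 in H524, a ratio of 1.92, with median percentiles of 66.3 and 36.2.

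Chromosome 17 as a whole did not carry the surplus, with 1169 H3K4me3 regions in H82 and 1143 in H524. NeuroD1 on this chromosome was listed at 307 and 1252 regions, a ratio of 4.08 against 5.34 for the whole lists. Between 50 and 500 kb from HOXB, NeuroD1 had 7 regions in H82 and 16 in H524, a ratio of 2.29. The part of copy number in the HOXB result was not tested, and the number of reads per library is unknown.

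**Figure D4:**
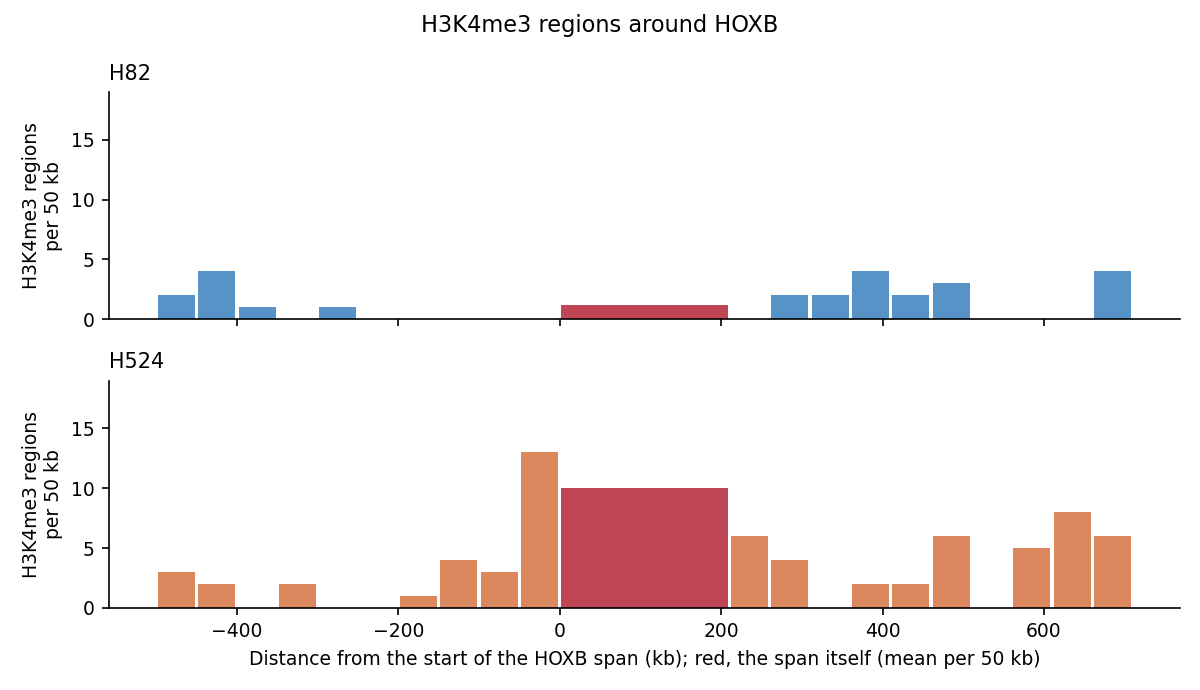
H3K4me3 regions per 50 kb from 500 kb before to 500 kb after the HOXB span, for H82 (top) and H524 (bottom), with the span itself in red as its mean per 50 kb. H524 has 13 regions in the 50 kb before the span and 6 in the 50 kb after it, where H82 has 0.

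In HOXA, most regions of H524 overlapped a region of H82, though often over part of their length. By base pairs, 46.1% of the H524 and 29.8% of the H82 covered length in HOXA was covered in both lines. Of the 12 H524 regions, 10 were found in H82 (83.3%, 51.6 to 97.9, against 52.9% of the list), and of the 24 H82 regions 10 were found in H524 (41.7%, 22.1 to 63.4, against 52.4%). Joining the overlapping regions of both lines gave 23 loci, of which 7 were in both lines, 14 in H82 alone and 2 in H524 alone. The longest stretch without H3K4me3 was the same in both lines, 28.9 kb from 27153615 to 27182539.

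The highest-scoring HOXA region of H82, from 27236892 to 27237792 (0.901 kb, score 10.6, percentile 95.6), lies near the far end of the span and was in H82 alone. The next were 27211862 to 27212927 (1.07 kb, percentile 90.0), found in both lines, and 27190635 to 27191125 (percentile 87.4), in H82 alone. The widest H82 region, from 27187442 to 27189574, measured 2.13 kb with 3 summits, and that from 27194911 to 27196031 measured 1121 bp. In H524 the highest-scoring was 27222904 to 27224384 (1.48 kb, score 10.4, percentile 94.9). It was followed by 27152704 to 27153614 (percentile 88.2) and 27212671 to 27213886 (1.22 kb, percentile 84.1), and all 3 were found in H82. The widest H524 region, from 27208285 to 27209991 (1.71 kb, percentile 75.9), was the highest-scoring HOXA region without an H82 counterpart. In the flank after the span, H524 had 5 regions and H82 had 1. The H82 region from 27282284 to 27282906 lies inside the highest-scoring of the 5, from 27282067 to 27283657 (1.59 kb, percentile 70.2).

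HOXC was the cluster where each line had many regions of its own. Its 32 joint loci comprised 10 in both lines, 13 in H82 alone and 9 in H524 alone. Of the H82 regions 43.5% (23.2 to 65.5) and of the H524 regions 52.6% (28.9 to 75.6) were found in the other line, 10 in each case. The counts rose along the span in H82 and were higher near its start in H524. When the span was divided into 4 equal parts, the parts held 3, 4, 7 and 9 regions of H82 and 7, 5, 3 and 4 of H524, from the posterior genes toward the anterior ones. The covered length also rose in H82, with 1.3, 1.885, 4.262 and 7.111 kb in the 4 parts. In H524 it did not follow the counts, with 2.889, 3.345, 2.762 and 3.003 kb.

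The region with the highest score of all HOX members was in HOXC of H82, from 54422051 to 54422694 (0.644 kb, score 17.0, percentile 99.4), and had no H524 counterpart. The next in H82 were 54403401 to 54403894 (percentile 86.7), also in H82 alone, and 54448347 to 54450530 (2.18 kb, percentile 80.2). The H524 list was led by 54392521 to 54394751 (2.23 kb, 4 summits, score 7.96, percentile 88.9), which ends at the same base as its H82 counterpart from 54392875 to 54394751 (1.88 kb, 4 summits, percentile 69.6). It was followed by 54367496 to 54368893 (1.40 kb, percentile 78.4) and 54379142 to 54380186 (1.05 kb, percentile 73.3), all found in H82. Wide regions of lower score in H82 and H524 were 54426833 to 54427915 (1.08 kb, percentile 38.0) and 54447190 to 54448276 (1.09 kb, percentile 61.8). The highest-scoring H524 region without a counterpart was 54332611 to 54333234 (percentile 68.0). The flanks held 3 H82 regions, led by 54459282 to 54459698 (percentile 51.2), and 1 H524 region from 54311215 to 54311518 (percentile 32.0), and none of these 4 was found in the other line.

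In HOXD, the strongest regions of H82 overlapped H524 regions, though not over their full length. Of the H524 regions 10 of 15 were found in H82 (66.7%, 38.4 to 88.2), and of the H82 regions 8 of 23 were found in H524 (34.8%, 16.4 to 57.3). The 28 joint loci comprised 8 in both lines, 15 in H82 alone and 5 in H524 alone. All 3 of the highest-scoring H82 regions, which were also the widest, had an H524 counterpart. They were 176957340 to 176958866 (1.53 kb, score 10.5, percentile 95.4), 176993541 to 176995741 (2.20 kb, score 10.2, percentile 94.9) and 177021716 to 177023239 (1.52 kb, score 8.74, percentile 91.9). The counterpart of the first, from 176958419 to 176959206, was of low rank in H524 (percentile 25.4) and overlapped it only in part. The strongest H82 region without a counterpart was 177042740 to 177043609 (percentile 75.2).

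In H524 the highest-scoring HOXD region, from 176971438 to 176971992 (0.555 kb, score 13.5, percentile 98.5), was in H524 alone. It was followed by 177021805 to 177023692 (1.89 kb, percentile 88.0) and 176962025 to 176963549 (1.53 kb, percentile 83.5), and a further wide region ran from 176987146 to 176988367 (1.22 kb, percentile 47.0). With regions less than 1 kb apart joined, H82 had a stretch of 6.41 kb from 176984743 to 176991151, which was 113 of 13253 joined H82 regions by width. It was the widest joined stretch in any cluster and line, ahead of 4.38 kb from 176957340 to 176961716 in the same cluster. In H524 the widest joined stretches were 4.11 kb in HOXB (46702374 to 46706478, 156 of 14653 by width) and 3.84 kb in HOXD (176993751 to 176997591).

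The HOXD flanks held 4 H82 and 3 H524 regions, all on the posterior side. The highest score in H82 was shared by 176943822 to 176944438 and 176949655 to 176949941 (both percentile 40.3), and that in H524 was at 176948430 to 176949072 (percentile 83.1). The H524 region from 176949508 to 176950477 is counted there because its midpoint, at −0.008 kb, falls just before the span. The nearest H524 region inside it starts at 176958419.

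Over the clusters together, a minority of HOX regions was found in the other line. The H82 share was 31 of 75 (41.3%, 30.1 to 53.3), an interval that includes the 52.4% of the list. The H524 share was 33 of 88 (37.5%, 27.4 to 48.5), against 52.9%, and without HOXB it was 30 of 46 (65.2%, 49.8 to 78.7). The H524 value below the list thus rested on HOXB. Without HOXB the H82 share was 28 of 70 (40.0%, 28.5 to 52.4).

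By base pairs, 33.0% of the H82 and 25.1% of the H524 covered length in the clusters was covered in both lines. HOX H3K4me3 regions were of ordinary width, with medians of 494 bp (H82) and 555 bp (H524) beside 563 and 526 bp over the whole lists. Over the 4 clusters together, those found in both lines had higher median widths and percentiles than those listed only once. For H82 the median widths were 599 and 473 bp and the median percentiles 52.0 and 28.7, and in H524 they were 911 and 544 bp and 63.1 and 37.9. Single clusters did not all follow this order. In HOXA of H524 the 10 shared regions had a median percentile of 63.8 and the 2 others 70.5, in HOXD of H524 it was 63.1 for 10 and 70.6 for 5, and in HOXB of H82 28.9 for 3 and 47.7 for 2. Median widths ran the other way in HOXA of H524 (750 and 1131 bp) and in HOXC of H82 (383 and 434 bp). The whole lists had the order of the 4 clusters together, with median percentiles of 65.0 and 34.5 in H82 and 64.4 and 34.6 in H524.

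**Figure D5:**
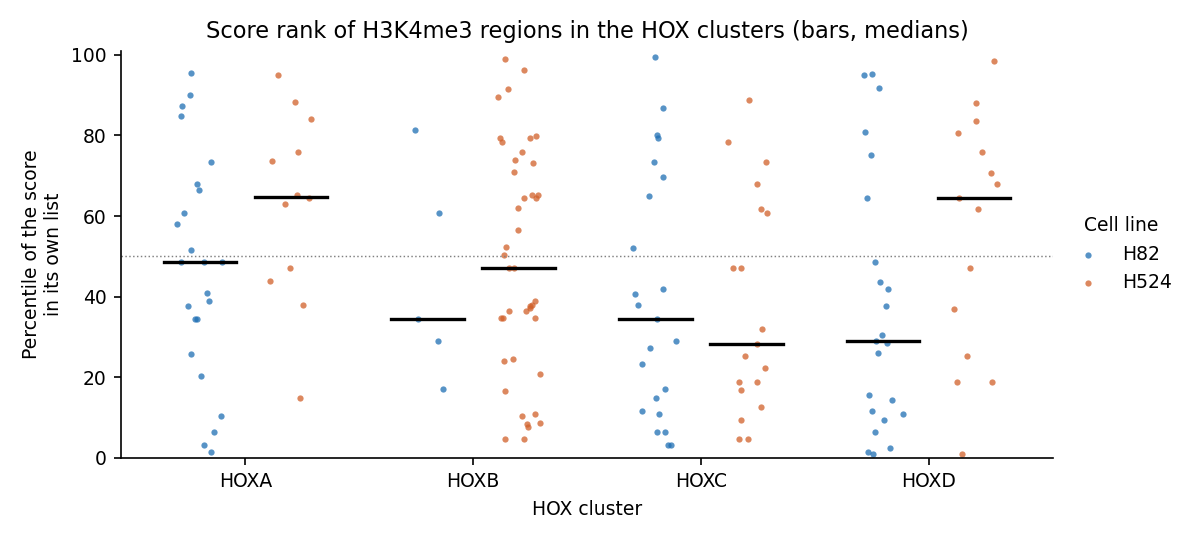
Percentile of the score within its own list for each H3K4me3 region of H82 (blue) and H524 (orange) in the 4 HOX clusters, with black bars at the medians and a dotted line at percentile 50. In H524 the medians of HOXA (64.8) and HOXD (64.5) lie above those of H82 (48.5 and 28.9), and the 42 HOXB regions of H524 spread over the whole range.

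The rank of the regions differed among clusters. The median percentile in H82 was 48.5 in HOXA, 34.5 in HOXB, 34.5 in HOXC and 28.9 in HOXD, beside 48.5 over the whole list with its tied scores. In H524 it was 64.8, 47.0, 28.2 and 64.5, beside 50.1 over the whole list. HOXA and HOXD in H524 therefore had fewer regions than in H82, and of higher rank. Of all 75 H82 members 26 lay above the 50th percentile, and of the 88 H524 members 43 did, 20 of them in HOXB.

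NeuroD1 had few regions in the clusters, and no site there was listed in both lines. H82 had 1 region each in HOXA, HOXC and HOXD and none in HOXB. H524 had 2 in HOXA, 1 in HOXB, 6 in HOXD and none in HOXC. Per length this was above the mean between the first and last listed region of each chromosome. The ratio was 4.09-fold in H82 and 2.29-fold in H524 over the 4 clusters and 7.79-fold in HOXD of H524. HOXB of H524 stood at 0.680 of that mean. For H3K4me3 the same ratio over the 4 clusters was 21.6 in H82 and 24.8 in H524. None of the 3 H82 regions was found in H524 (exact upper bound 70.8%, against 53.6% of the list). None of the 9 H524 regions was found in H82 (exact upper bound 33.6%, against 9.98% of the list). With the H524 list limited to the length of the H82 list, 0 of its NeuroD1 regions were left in the clusters. With so few regions, a share like that of the whole lists could not be told from 0. Relative to the mark, the clusters had 4.0 NeuroD1 per 100 H3K4me3 regions in H82 and 10.2 in H524, against 21.2 and 111 in the whole lists.

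The H82 NeuroD1 regions were of low or middle rank and 275 to 445 bp wide, beside a median of 415.5 bp over the list. In HOXA the region from 27195637 to 27196081 (score 2.33, percentile 23.8) overlapped H3K4me3 of both lines. In HOXD the region from 176994044 to 176994343 (score 2.91, percentile 36.3) lies inside the widest H82 H3K4me3 region of that cluster and also overlapped the mark of H524. In HOXC the region from 54411530 to 54411804 (score 4.03, percentile 55.4) overlapped no mark and lay 0.191 kb from the nearest H3K4me3 region of H82.

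In H524, HOXD held most of the NeuroD1 regions, at 3 places. The first, from 176962116 to 176962526 (percentile 30.7), overlapped H524 H3K4me3. At the second, the regions from 176997010 to 176997302 (percentile 6.71) and from 176997579 to 176998153 (score 5.08, percentile 61.2) both overlapped the far part of 1 H524 H3K4me3 region and lay 2.67 and 3.23 kb from the H82 NeuroD1 region. That H3K4me3 region ends at 176997591, so the NeuroD1 region with the score of 5.08 met it only at its edge. At the third, toward the anterior genes, the region from 177039741 to 177040324 (percentile 40.8) overlapped H524 H3K4me3, while those from 177040645 to 177041332 (percentile 40.5) and from 177042816 to 177043243 (score 1.47, percentile 4.22) did not. The last of these overlapped H3K4me3 of H82 only, at the strongest HOXD region that H82 had alone.

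Both H524 NeuroD1 regions of HOXA overlapped H3K4me3 of H524. That from 27208243 to 27208561 (score 3.96, percentile 46.2) was at the widest H524 H3K4me3 region of the cluster, which no H82 region overlapped. An H82 H3K4me3 region nevertheless lay 0.093 kb from this NeuroD1 region. At the other NeuroD1 region the mark was listed in both lines. The only NeuroD1 region of HOXB, from 46631866 to 46633117 in H524 (score 3.21, percentile 34.7), was 1252 bp wide and bridged 2 neighbouring H3K4me3 regions of H524. It lay 19.4 kb from the nearest H82 H3K4me3 region.

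Where NeuroD1 was listed in a cluster, it was mostly on the mark. In H82 2 of 3 regions (66.7%, 9.43 to 99.2) and in H524 7 of 9 (77.8%, 40.0 to 97.2) overlapped H3K4me3 of the same line, against 29.4% and 16.0% of the whole lists. H3K4me3 covers far more of these spans (8.64% in H82 and 11.3% in H524) than of the chromosomes, and its part in this overlap was not tested. Seen from the mark, 2 of 75 H82 regions (2.67%, 0.325 to 9.30) and 7 of 88 H524 regions (7.95%, 3.26 to 15.7) overlapped NeuroD1 of the same line, against 6.34% and 18.0% of the lists. In HOXB, 2 of the 42 H524 regions overlapped NeuroD1 (4.76%, 0.582 to 16.2).

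The single NeuroD1 site common to both lines lay outside the clusters, in the flank before HOXD. The H82 region from 176928063 to 176928667 (score 6.41, percentile 79.8) and the H524 region from 176928247 to 176928891 (score 6.91, percentile 74.5) overlapped. Each had the highest score among the NeuroD1 regions of its line in the clusters and flanks. They lay 13.0 and 15.0 kb from H3K4me3 of the same line. The other flank regions, all of H524, were 176900064 to 176900720 and 176943273 to 176943572 before HOXD, 27291110 to 27291423 after HOXA and 54457544 to 54457849 after HOXC, with percentiles from 14.4 to 36.5. Of these 4, only the one after HOXA overlapped H3K4me3 of H524.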

How the data were processed

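NeuroD1 and H3K4me3 peak lists of H82 and H524 were used, 1 library each, and the 2 input libraries were not analysed here. Per the submitters' processing notes, MACS2 2.1.1, Bowtie 1.1.2, ChIPseeker 1.18.0 and build hg19 were used, and the role of each is not stated there. Settings, duplicate handling and any use of the input: not given in the sources used here. As deposited, the score was read as −log10 of a q-value from its values alone, since the lowest lies just above 1.301 (0.05). It ranks regions within a list.

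Identical intervals were merged and the highest score kept. Positions are 1-based. Regions overlapped when sharing at least 1 bp. Shares have exact Clopper-Pearson 95% intervals. Windows were tiled from the first listed region of each chromosome, and mean coverage was taken between the first and last one. The tools were pandas 2.3.3, numpy 2.4.6, matplotlib 3.10.9 and scipy 1.17.1 in Python 3.11.15. Counting was tested on simulated data with planted regions. The position of 1 NeuroD1 region of H524 in HOXA is not reported here. Named regions were the 3 highest-scoring and 3 widest H3K4me3 regions of each cluster and line, the highest-scoring of a single line, the longest empty stretch, the highest-scoring flank regions and all other NeuroD1 regions. Further regions, chosen after their values were seen, are all 5 HOXB regions of H82, the widest joined stretches, the first HOXD region inside the span, and the far HOXB region of H524. Members and lists were chosen with earlier results of these data known. RefSeq promoter entries existed for 20 of the 39 HOX genes (51.3%), so a check of promoter sequence over the set is void. Cofactor and Polycomb gene lists, which need hg19 gene positions, were not analysed here.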

Additional observations from a re-analysis of the deposited data

How the results depend on the processing

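Of 164 values recomputed under alternative settings, 107 stayed within 1.5-fold (counts and lengths) or inside their interval (shares), and 57 moved. H524 had more H3K4me3 regions in HOXB than H82 under every setting that could change these counts. The settings for overlap share, gap and flank length could not change them. With lists limited to scores not below their own median, HOX H3K4me3 regions numbered 30 in H82 and 43 in H524. In H82 these were 13 in HOXA, 2 in HOXB, 8 in HOXC and 7 in HOXD, covering 0.971 kb of HOXB, 7.52 kb of HOXC and 8.89 kb of HOXD. In H524 they were 8 in HOXA, 20 in HOXB, 6 in HOXC and 9 in HOXD, covering 18.2 kb of HOXB and 6.66 kb of HOXC. HOXD thus had more regions in H524 (9) than in H82 (7) under this setting. The flanks held 1 H82 and 6 H524 H3K4me3 regions and 1 H524 NeuroD1 region. NeuroD1 in the clusters fell to 1 region in each line, of which 0% in H82 and 100% in H524 were on the mark. The H524 region met the mark only at its edge.

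With a score of at least 5, H3K4me3 regions numbered 18 in H82 (6, 1, 6 and 5 in HOXA to HOXD) and 28 in H524 (5, 12, 4 and 7). They covered 6.43, 0.598, 6.75 and 7.37 kb in H82 and 5.90, 13.9, 5.30 and 7.17 kb in H524. The flanks held 0 H82 and 6 H524 H3K4me3 regions and 1 H524 NeuroD1 region. NeuroD1 in the clusters was left with 0 regions in H82 and 1 in H524, the same as above, which met the mark (100%) only at its edge. Of the H524 H3K4me3 regions, 21.4% were found in H82. With lists of equal length, H524 NeuroD1 had 0 regions in the clusters and 0 in the flanks, so its 9 cluster regions depended on the longer list. Joining regions within 1 kb left 48 H3K4me3 regions in H82, with 15 in HOXA and 12 in HOXD. Flanks of 100 kb held 10 H524 NeuroD1 and 18 H82 H3K4me3 regions. Requiring overlap of at least 50% of a region lowered the share found in the other line to 21.3% in H82 and 17.0% in H524. Allowing a gap of 1 kb raised it to 61.3% in H82 and put 100% of the H82 NeuroD1 regions on the mark. Counting every deposited entry, or any overlap with a span, moved no value past these limits. No paired analysis was possible because each group has 1 library. Low counts of NeuroD1 and unknown read depth limit what the lists can show.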
